A study of Homo sapiens with 8 samples.

Results

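Microexons are the shortest exons of the genome, and 343 of them were examined here among 19729 cassette exons of JSL1 cells, in 324 genes. JSL1 cells are a clone of the Jurkat line of human T lymphocytes. The members were chosen by length, among cassette exons listed as a simple choice between 2 junctions, inclusion and skipping. All such exons of 3 to 30 nucleotides (nt) in either of the authors' deposited tables of splicing changes were taken. Microexons listed only among more junctions, or with an alternative splice site or retained intron, were left out. So were exons listed with 11 nt, a length the tables give to exons whose far end is unknown. The 4 groups, of 2 libraries each, were CELF2-depleted and control cells without stimulation, and CELF2-depleted and control cells given 20 ng/mL of the phorbol ester PMA for 48 hours. Depletion used doxycycline-inducible short hairpin RNAs against the splicing regulator CELF2, carried on a stably integrated lentivirus. The labels do not say whether control cells carried a hairpin or received doxycycline, so the effects of the vector and the drug cannot be told apart from that of CELF2.

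Microexons are so short that the splicing machinery can hardly hold both of their ends at once, and they depend on enhancers in the flanking introns and on proteins that bind there. Many are included in neurons and muscle and skipped elsewhere, and those whose length is a multiple of 3 add or remove a few amino acids without shifting the reading frame, often at the surface of a domain that binds other proteins. CELF2 binds GU-rich RNA near alternative exons and can raise or lower their inclusion.

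The sequences below are those of 8 microexons that the results turn on and of 4 others that show the range of the class. They are from GENCODE v29 transcripts on GRCh38, in transcript direction, with the microexon in capitals between 20 nt of each neighbouring exon in lower case. All lengths shown are multiples of 3. CLSTN1, MEF2D, UGGT1, HERC3, RAPGEF2, DIAPH1, MON2, RFFL, SRC, OCRL and IGSF1 matched the tables by the lengths of both flanking introns. The PPFIA1 transcript matched by its downstream intron alone, and its upstream neighbour is another exon than the one the tables join to it.

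The first 7 lines are exons whose inclusion was called as different on CELF2 depletion.
DIAPH1, 27 nt: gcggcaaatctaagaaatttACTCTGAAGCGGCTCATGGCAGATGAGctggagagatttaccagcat
UGGT1, 24 nt: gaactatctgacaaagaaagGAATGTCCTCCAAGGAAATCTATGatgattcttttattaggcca
CLSTN1, 30 nt: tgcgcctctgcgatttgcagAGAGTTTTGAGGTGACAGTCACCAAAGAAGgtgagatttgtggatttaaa
PPFIA1, 30 nt: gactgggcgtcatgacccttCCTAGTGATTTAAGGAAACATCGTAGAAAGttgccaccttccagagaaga
OCRL, 24 nt: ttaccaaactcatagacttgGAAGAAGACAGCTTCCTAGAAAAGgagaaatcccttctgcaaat
RFFL, 24 nt: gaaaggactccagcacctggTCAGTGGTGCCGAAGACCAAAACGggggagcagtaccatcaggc
IGSF1, 27 nt: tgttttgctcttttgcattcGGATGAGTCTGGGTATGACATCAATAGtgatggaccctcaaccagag
The next lines are an exon lower with PMA in both kinds of cells (RAPGEF2), one that was higher without CELF2 but not called (HERC3), a coding exon described in brain and muscle (MEF2D), the neuronal insert of a tyrosine kinase (SRC) and one of the shortest members (MON2).
RAPGEF2, 24 nt: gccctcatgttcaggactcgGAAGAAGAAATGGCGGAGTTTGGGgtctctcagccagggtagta
HERC3, 24 nt: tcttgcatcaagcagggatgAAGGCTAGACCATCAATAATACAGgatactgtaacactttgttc
MEF2D, 21 nt: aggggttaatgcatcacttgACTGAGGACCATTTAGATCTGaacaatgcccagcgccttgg
SRC, 18 nt: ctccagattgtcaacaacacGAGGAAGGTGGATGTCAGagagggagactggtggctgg
MON2, 3 nt: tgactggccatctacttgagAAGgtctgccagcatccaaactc

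The tables group splice junctions into local splicing variations (LSVs), sets of junctions that leave or enter the same exon. Inclusion of an exon is the share of the junction into it, against the junction that skips it, and was averaged where the exon was read from both of its neighbours. LSVs with more junctions, or marked in the tables for an alternative splice site, were not averaged in, and for called exons they are given as readings at the other neighbour. The authors give 1 inclusion value per group, pooled over both libraries, so no spread between libraries and no read depth is known, and no test over samples could be made. Their measure of error is the posterior probability that inclusion differs by at least 20 percentage points, and an exon was called at a posterior of 0.95 or more. The expected change is depleted minus control, in percentage points, and is drawn towards 0 by the authors' model where evidence is weak. Without PMA 323 microexons were measured and with PMA 329, of which 309 were in both tables. LSVs were present for 10 of 13 T cell marker genes in both tables, for CD79A alone of 4 B cell markers and for none (0) of 4 myeloid markers, and among 3 neural markers for SNAP25. The tables hold no expression values, so the depletion of CELF2 itself could not be checked.

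Most microexons were skipped in these T cells. The median inclusion was 2.6% in depleted and 2.7% in control cells without PMA, and 2.6% in depleted and 2.8% in control cells with PMA, close to the lowest value the tables give, 2.5%. Over all cassette exons the medians were 95.7% and 95.6% without PMA and 94.4% and 96.2% with PMA, depleted before control. In every group in which they were measured, 193 of the 343 microexons (56.3%) stayed under 10% inclusion and 84 (24.5%) over 90%, and 66 (19.2%) lay between 10% and 90% in at least 1 group. The share under 10% lay between 57.4% and 58.4% over the 4 groups, as the plot of inclusion by length shows. On the 2 sides of the length limit the medians lay apart. Exons of 28 to 30 nt had medians of 2.5% in depleted and 2.7% in control cells without PMA, and exons of 31 to 33 nt 32.4% and 37.4%. With PMA the medians were 2.5% and 2.6% below the limit, and 51.9% and 50.2% above it. Most exons lay under 10% or over 90%, so a small shift between these classes can move a median far.

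**Figure D1:**
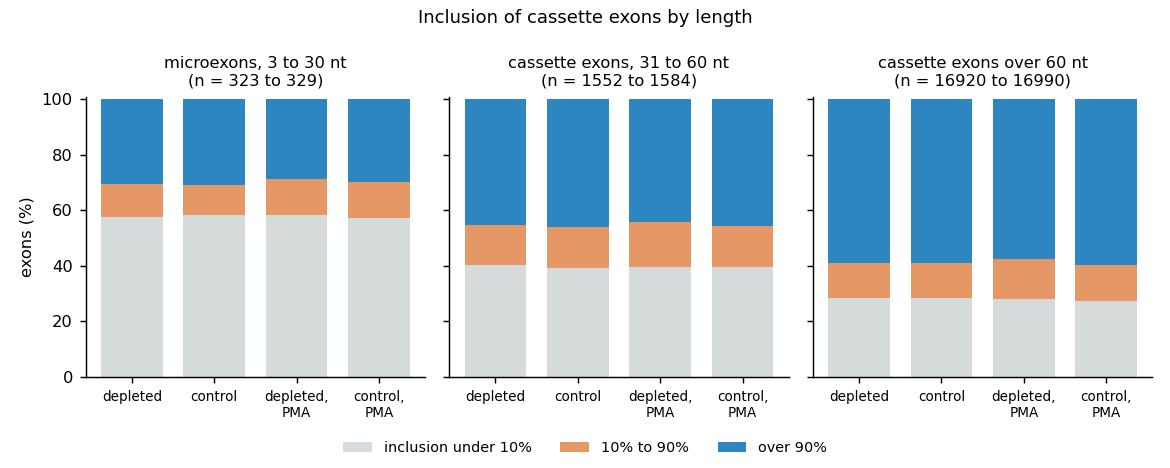
Share of cassette exons (vertical axis, percent) with inclusion under 10%, of 10% to 90% and over 90% in each of the 4 pooled groups, for microexons and for 2 classes of longer exons. Over 57% of microexons were under 10% in each group, and over 57% of the exons longer than 60 nt were over 90%.

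In genes with microexons described in neurons or muscle, most microexons were in the skipped state. Of 89 such genes, 27 had a microexon in the tables, 34 in all, which were not matched one by one to the described exons. Under 10% in every group were 30 of these 34, against 56.3% of all microexons, and 28 of the 30 were at or under 3%. They include the SRC exon, which lengthens the SH3 domain of this tyrosine kinase in neurons, at 18 nt; a 21 nt exon of PTK2, the focal adhesion kinase; a 12 nt exon of AGRN, which encodes the synapse organiser agrin; and a 6 nt exon of TAF1, a subunit of the general transcription factor TFIID. The other 4 exons were measurably included. PPFIBP1 (liprin-beta-1) had 93.05% in depleted and 86.9% in control cells without PMA, and 92.15% and 84.2% with PMA. The 21 nt exon of MEF2D, a transcription factor of muscle, neurons and lymphocytes, had 8.1% in depleted and 10.5% in control cells without PMA, and 12.4% and 11.4% with PMA. Neither was called. RAPGEF2 and PPFIA1 are given with the PMA and depletion results. The 4 shortest members, 3 nt exons of MON2, NUBPL, NEDD4L and HDGFRP2, were at 2.5% to 2.7% in every group.

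A larger share of microexons than of longer cassette exons had a length that was a multiple of 3, with coding and noncoding exons counted alike. Their length was a multiple of 3 in 208 of 343 (60.6%; 95% exact binomial interval 55.3% to 65.8%, which covers counting error only), against 748 of 1667 exons of 31 to 60 nt (44.9%) and 6791 of 17771 longer ones (38.2%). The commonest lengths were 30 nt (43 exons), 27 nt (39 exons) and 24 nt (37 exons). Among the 66 exons of intermediate inclusion 47 (71.2%) were multiples of 3, among the 193 skipped ones 123 (63.7%) and among the 84 included ones 38 (45.2%). No test of these differences was made. The length classes also differed in exons read from LSVs with a de novo junction, one absent from the annotation. These were 15.5% of microexons, 31.6% of exons of 31 to 60 nt and 36.5% of longer ones. The shares of longer exons without them were not computed.

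For 124 of the 343 the listed length is not borne out by junctions at both ends: 1 or both of the exon's ends is joined by no junction listed for its gene. Among the 219 whose ends were both joined, 156 (71.2%) were multiples of 3, and among the 124 others 52 (41.9%). The exons over 90% in every group stood apart in this respect, since only 32 of 84 had both ends joined, and 40 of 84 matched an annotated exon only as the first or last of a transcript. Of all members 293 matched a GENCODE v29 exon by length and flanking intron. Of the matched ones, 49 of 58 exons of intermediate inclusion (84.5%), 96 of 163 skipped ones (58.9%) and 45 of 72 included ones (62.5%) were wholly coding.

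**Figure D2:**
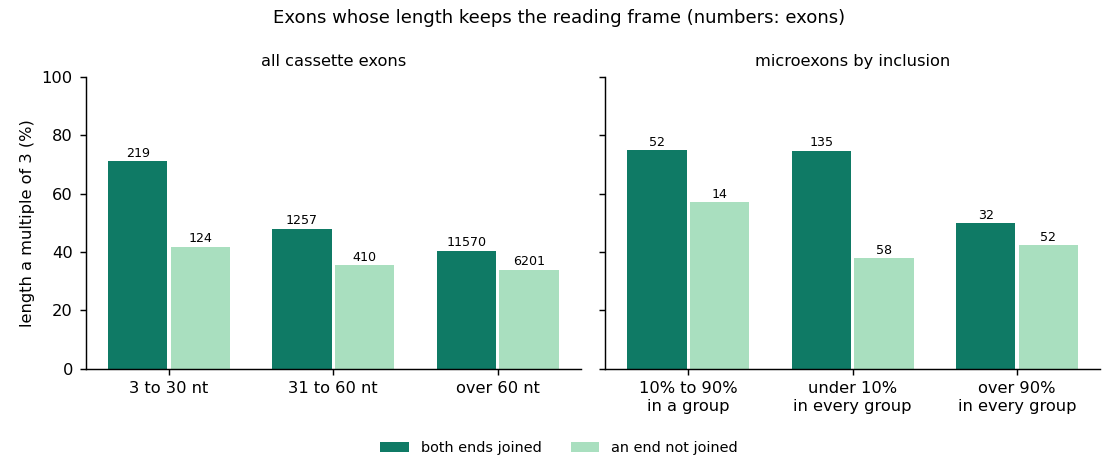
Share of exons whose length is a multiple of 3 (vertical axis, percent), for 3 length classes of all cassette exons on the left and for microexons by their inclusion on the right. Dark bars are exons with both ends joined by a listed junction, pale bars those with an end not joined, and the number above each bar is its count of exons; the tallest bars are microexons with both ends joined, 71.2% over all of them.

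On CELF2 depletion 11 microexons were called, 4 of them in both states and 7 with PMA alone. Without PMA 4 of 323 microexons were called (1.24%), against 0.653% of all 18848 cassette exons, and with PMA 11 of 329 (3.34%), against 1.21% of 18752. Without PMA 2 were higher and 2 lower in depleted cells (background 0.361% higher and 0.292% lower), and with PMA 4 were higher and 7 lower (background 0.512% and 0.693%). Over exons of 10% to 90% inclusion in a group, a set chosen by the values themselves, the counts were 4 of 47 (8.51%) against 3.96% of all such exons without PMA, and 11 of 58 (19.0%) against 6.47% with PMA. An expected change of at least 10 points was found in 12 microexons (3.72%; 3.39% of all exons) without PMA and in 22 (6.69%; 5.41% of all exons) with PMA, so with this lower limit the shares were closer to the background. Every called exon was listed as 21 to 30 nt long, but the 28 nt of ANKHD1 are not borne out by junctions at both ends. Among microexons with both ends joined by a listed junction, 4 of 212 (1.89%) were called without PMA and 10 of 208 (4.81%) with PMA. Over all cassette exons with both ends joined the shares were 0.659% and 1.19%. None (0) of the 117 of 20 nt or less was called in either state, and 12 of these 117 were of intermediate inclusion. With 0.653% and 1.21% called over all cassette exons, 0 of 117 is near the background, so no length limit can be read from it.

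**Figure D3:**
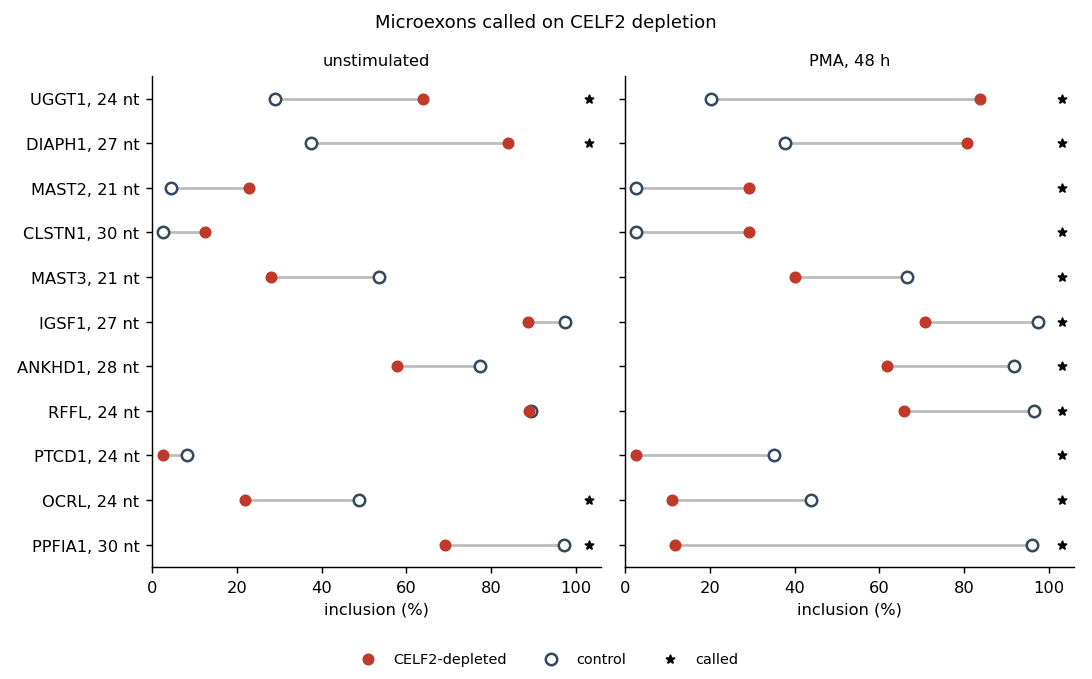
Inclusion (horizontal axis, percent) of the 11 called microexons in CELF2-depleted cells (filled red) and control cells (open), without PMA on the left and with PMA on the right; a star marks a posterior of 0.95 or more. Each point is 1 value pooled by the authors over 2 libraries, and PPFIA1 and UGGT1 have the widest gaps with PMA.

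The 4 called exons that were higher in depleted cells were in DIAPH1, CLSTN1, UGGT1 and MAST2. DIAPH1, a formin that nucleates and elongates actin filaments, has a 27 nt coding exon at chr5:140967791-140967817 of hg19, minus strand. Its inclusion was 84.0% in depleted and 37.6% in control cells without PMA, and 80.6% and 37.6% with PMA. The expected changes were +47.57 and +44.05 points, both with a posterior of 1.0, and the LSV at its other neighbour, with 4 junctions, gave 82.8% in depleted and 40.6% in control cells without PMA and 82.7% and 39.4% with PMA. At that other neighbour the expected changes were +43.3 points without PMA and +44.5 points with PMA, so the 2 readings differ on which state had the larger change. CLSTN1, calsyntenin-1, links kinesin-1 motors to membrane cargo. Its 30 nt coding exon (chr1:9816539-9816568, minus strand) was at 12.5% in depleted and 2.5% in control cells without PMA, not called, and at 29.1% and 2.5% with PMA, with an expected change of +27.32 points and a posterior of 0.999. The LSV at its other neighbour, with 4 junctions, gave 29.9% in depleted and 2.5% in control cells with PMA. In control cells the CLSTN1 exon was at the lowest value of the tables in both states.

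UGGT1 is the sensor of glycoprotein folding in the endoplasmic reticulum, which puts a glucose back on misfolded glycoproteins. Its 24 nt coding exon (chr2:128913966-128913989, plus strand) had 63.95% inclusion in depleted and 29% in control cells without PMA, and 83.75% and 20.35% with PMA. The expected changes were +35.81 points (posterior 0.999) and +65.05 points (posterior 1.0). With PMA no other microexon had a larger positive expected change, and without PMA that of DIAPH1 was larger. With PMA inclusion was higher in depleted cells and lower in control cells than without it, so the gap was wider on both sides.

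The kinase paralogs MAST2 and MAST3, which bind microtubules, each had a 21 nt exon that the authors' tables mark as de novo, and the directions were opposite. In MAST2 (chr1:46466631-46466651, plus strand) inclusion was 22.8% in depleted and 4.4% in control cells without PMA (posterior 0.573), and 29.2% and 2.5% with PMA (posterior 0.996). Read from its downstream neighbour the exon had 16.6% in depleted and 2.5% in control cells with PMA, with a posterior of 0.133, so the MAST2 call rests on 1 flank. In MAST3 (chr19:18232917-18232937, plus strand) inclusion was 28.1% in depleted and 53.45% in control cells without PMA (posterior 0.795), and 39.95% and 66.4% with PMA (posterior 0.959). The posterior is the higher of 2 readings, and the upstream reading of MAST3 with PMA, -21.3 points with a posterior of 0.714, would not be called, so this call also rests on 1 flank. Neither exon matched GENCODE v29 by length and intron, and the labels do not say how reads were assigned between the paralogs.

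The lower exons were led by PPFIA1, liprin-alpha-1, a scaffold of focal adhesions and vesicle docking sites. Its 30 nt coding exon (chr11:70197100-70197129, plus strand) had 69.2% inclusion in depleted and 97.1% in control cells without PMA (expected change -28.57 points, posterior 0.955), and 11.7% and 96.0% with PMA (-86.37 points, posterior 1.0). This is the share of junctions that leave 1 optional upstream exon, at chr11:70196029-70196145, which itself took 19.1% in depleted and 14.4% in control cells of the junctions of its own upstream LSV without PMA, and 11.1% and 6.5% with PMA. At the downstream neighbour, where 4 junctions compete, the one from the microexon had 17.4% in depleted and 13.6% in control cells without PMA, and 2.5% and 4.7% with PMA, and was not called. There the largest share, 89.4% in depleted and 94.9% in control cells with PMA, went to the junction from chr11:70194526 that passes over both exons. The wide gap in PPFIA1 is thus one among the junctions of that optional exon.

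OCRL, an inositol polyphosphate 5-phosphatase of endosomes and the Golgi that is mutated in Lowe syndrome, has a 24 nt coding exon at chrX:128718321-128718344, plus strand. It had 21.95% inclusion in depleted and 48.8% in control cells without PMA (posterior 0.955), and 10.95% and 43.9% with PMA (posterior 0.998). The expected changes were -27.52 and -33.8 points. Without PMA the upstream reading of OCRL had a posterior of 0.934, so that call rests on the downstream reading alone, and with PMA both readings were called. RFFL, a RING-type ubiquitin ligase of endosomes, and IGSF1, a membrane glycoprotein of the immunoglobulin superfamily, had exons that were mostly included in control cells. The RFFL exon of 24 nt (chr17:33341759-33341782, minus strand) was at 88.9% in depleted and 89.5% in control cells without PMA, and at 65.7% and 96.5% with PMA (posterior 0.992). Its other neighbour gave 69.6% in depleted and 96.4% in control cells with PMA. The IGSF1 exon of 27 nt (chrX:130420411-130420437, minus strand) was at 88.8% in depleted and 97.45% in control cells without PMA, and at 70.7% and 97.35% with PMA (posterior 0.996). In both genes depleted cells were the lower ones with PMA, and without PMA neither exon was called.

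In PTCD1 and ANKHD1 the called junction was not matched at the other end of the exon. PTCD1, a mitochondrial RNA-binding protein, has a 24 nt exon (chr7:99030547-99030570, minus strand) annotated in a noncoding transcript. It was at 2.5% in depleted and 8.3% in control cells without PMA, and at 2.5% and 35.0% with PMA (posterior 1.0), but the LSV at its other neighbour gave 2.5% in both kinds of cells in both states. ANKHD1, a protein with ankyrin repeats and a KH domain, had 57.8% in depleted and 77.3% in control cells without PMA (posterior 0.685), and 61.7% and 91.8% with PMA (posterior 0.999), for an exon listed as 28 nt (chr5:139876105-139876132, plus strand). No listed junction leaves its far end, and the LSV downstream was read from position 139876863, so a length of 28 nt is not borne out for ANKHD1. At that downstream LSV the skipping junction was called in both states, with 47.8% in depleted and 21.6% in control cells without PMA (posterior 0.982), and 41.9% and 10.5% with PMA (posterior 0.999).

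Of the 11 called exons 10 had a larger expected change with PMA than without. For DIAPH1, the exception, the readings at its neighbours differ on which state had the larger change. Only 4 of the 11 were called in both states. The others were called with PMA alone, so for them a larger change with PMA was largely fixed by the choice. Across microexons in both tables with an expected change of at least 10 points in a state, 22 exons, the sign was the same in both states for 17. Of these 22, 11 passed 10 points in both states, 10 with PMA alone and 1, in HERC4, without PMA alone. Over all cassette exons 639 of 18848 (3.39%) passed 10 points without PMA and 1014 of 18752 (5.41%) with PMA. More changes with PMA were thus not particular to microexons. Sign agreement and the split between states were not counted over all cassette exons. The difference between states was not tested, because the tables were quantified separately and hold 1 pooled value a group.

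**Figure D4:**
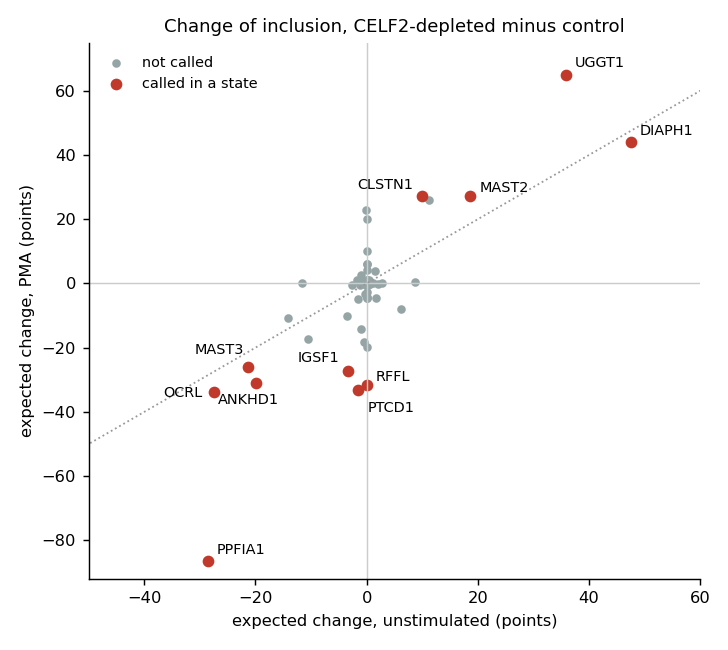
Expected change of inclusion, CELF2-depleted minus control (percentage points), without PMA (horizontal) and with PMA (vertical) for the 309 microexons in both tables; red points were called in a state and the dotted line marks equal change. Of the 11 called exons, DIAPH1 alone lies nearer to 0 with PMA, but only 4 of the 11 were called in both states and the others with PMA alone.

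Several exons came close to the threshold. OCRL and PPFIA1 without PMA (posterior 0.955) and MAST3 with PMA (posterior 0.959) were just inside it, and PDE4DIP (posterior 0.928), HERC3 (posterior 0.895) and PHKA2 (posterior 0.888) with PMA just outside. HERC3, a HECT-type ubiquitin ligase, had 76.5% inclusion of its 24 nt exon in depleted and 50.8% in control cells with PMA, and 88.0% and 70.5% without PMA. A 24 nt exon of its paralog HERC4 had 5.0% in depleted and 18.7% in control cells without PMA, and 8.2% and 6.2% with PMA. PHKA2, a regulatory subunit of phosphorylase kinase, had 97.5% of its 30 nt exon in depleted and 75.2% in control cells with PMA, and 95.1% and 97.4% without PMA. PDE4DIP, the centrosome protein myomegalin, had a 10 nt exon with 57.9% in depleted and 85.7% in control cells with PMA; 1 of its ends was not joined by a listed junction.

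The other 6 of the 10 uncalled exons with the largest expected changes were lower in depleted cells by point estimate, except TRIM35. With PMA a 30 nt exon of CBR4, a mitochondrial reductase, had 26.0% in depleted and 45.5% in control cells, and a 27 nt exon of TRAPPC9, a subunit of a vesicle tethering complex, 54.7% and 73.7%. An 18 nt exon of ANXA6, a calcium-dependent membrane-binding annexin, had 43.0% in depleted and 60.1% in control cells, and a 27 nt exon of PTPRA, a receptor-type tyrosine phosphatase, 8.15% and 22.05%. ERMARD had 86.6% in depleted and 97.5% in control cells with PMA for its 30 nt exon, and TRIM35 93.0% and 73.4% for an exon of 23 nt. None of these 6 reached a posterior of 0.95 in either state.

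Microexons were also counted by the role of their genes, in lists so short that 1 exon moves the share widely. The lists were chosen with earlier results of these data known, so their shares do not measure an enrichment. Genes of actin, microtubules and adhesion had DIAPH1 called higher and PPFIA1 lower in both states. These were 2 of 14 microexons measured without PMA (14.3%) and 2 of 15 with PMA (13.3%). The shares were 1.24% and 3.34% over all microexons, and 0.653% and 1.21% over all cassette exons. In genes of vesicle and membrane traffic the same PPFIA1 exon alone was called, 1 of 15 in each state (6.67%). The 4 microexons in genes of chromatin and transcription included none (0) called. Among 40 listed regulators of small exons none had a microexon cassette in the tables (0 exons), but several had other called LSVs. Without PMA 3 of 31 with an LSV were called, MBNL1, PUF60 and TIA1, against 6.2% of all genes. With PMA 10 of 32 were called, against 10.6% of all genes: CELF1, CELF2, ESRP1, HNRNPC, HNRNPL, MATR3, MBNL1, PTBP2, TIA1 and TIAL1. A gene was called here if any 1 of its LSVs was, and the share over all genes takes no account of the number of LSVs per gene. The regulators called with PMA had between 1 LSV (ESRP1) and 25 LSVs (MATR3). In CELF2 itself 3 of 16 LSVs were called with PMA. The junction that changed most in PTBP2, the neuronal polypyrimidine tract binding protein, had 35.7% in depleted and 2.6% in control cells with PMA, and in MBNL1, a muscleblind protein, 44.6% and 92.6%. The part of these changes in those of the microexons was not tested.

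PMA by itself was accompanied by few differences in microexons. These are differences of pooled values between tables quantified separately, and were not tested. In depleted cells 2 of 309 microexons (0.647%; 0.94% of all cassette exons) differed by at least 20 points between PMA and unstimulated cells, and in control cells 3 of 309 (0.971%; 1.59% of all). At 10 points the counts were 16 (5.18%) against 5.22% in depleted cells and 18 (5.83%) against 5.85% in control cells, at the background in each. In depleted cells the 2 were PPFIA1 and RFFL, both lower with PMA. In control cells they were RAPGEF2 and PHKA2, lower with PMA, and PTCD1, higher with PMA.

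Among the 8 exons with the largest differences in the same direction in both kinds of cells, 4 were lower with PMA. HERC3 was one, with 76.5% with PMA and 88.0% without in depleted cells, and 50.8% and 70.5% in control cells. The 24 nt exon of RAPGEF2, which activates the GTPase Rap1, had 58.2% with PMA and 68.7% without in depleted cells, and 50.3% and 78.1% in control cells. A 27 nt exon of NARS2, the mitochondrial asparaginyl-tRNA synthetase, had 83.0% with PMA and 91.8% without in depleted cells, and 73.5% and 91.25% in control cells. Values were lower with PMA also for a 27 nt exon of SNX14, an endosome and lysosome protein, with 34.7% with PMA and 41.4% without in depleted cells, and 28.7% and 40.5% in control cells.

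Higher inclusion with PMA in both kinds of cells was found for MAST3, with 39.95% with PMA and 28.1% without in depleted cells, and 66.4% and 53.45% in control cells. CSNK1G3, a casein kinase 1 isoform, had 47.0% with PMA and 28% without for a 24 nt exon in depleted cells, and 31.75% and 25.5% in control cells. The other two were SMYD4, with 21.3% with PMA and 14.3% without in depleted cells and 19.3% and 8.9% in control cells, and CES3, a carboxylesterase, with 60.9% and 51.7% in depleted and 48.6% and 42.0% in control cells. Their lengths are 20 nt and 19 nt, and neither is a multiple of 3. The CES3 exon is annotated as coding. The SMYD4 exon was marked as de novo and matched no GENCODE v29 exon, so whether it is coding is unknown.

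**Figure D5:**
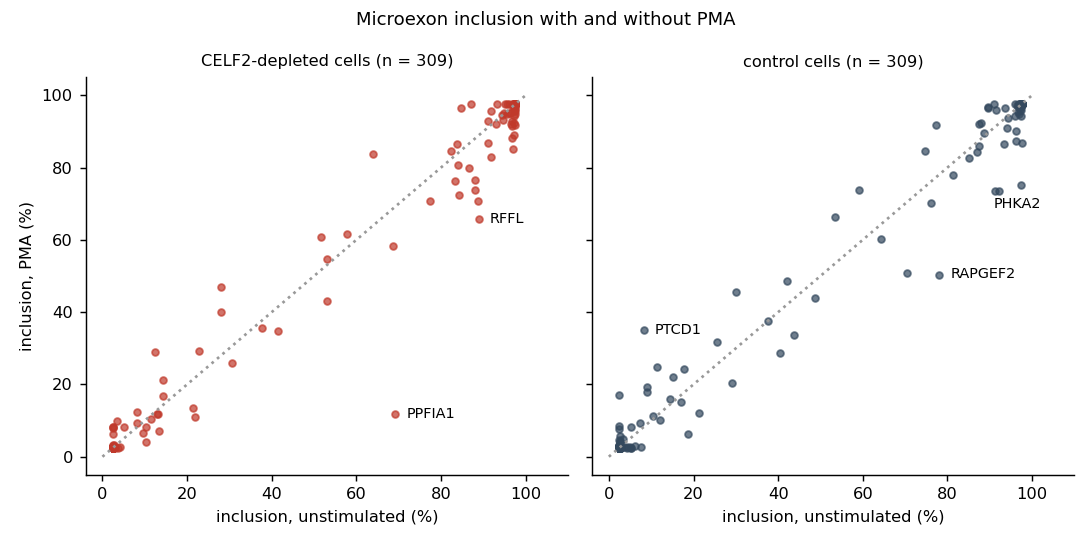
Inclusion (percent) of the 309 microexons in both tables, with PMA (vertical) against unstimulated (horizontal), in CELF2-depleted cells on the left and control cells on the right. The dotted line marks equal inclusion and the named exons differ by at least 20 points: PPFIA1 and RFFL in depleted cells, and PTCD1, RAPGEF2 and PHKA2 in control cells.

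As a measure of technical agreement, microexons read from both neighbours were compared. Among those of 10% to 90% in control cells, the 2 readings of inclusion in control cells differed by a median of 3.0 points over 13 exons without PMA and 3.8 points over 15 with PMA, and the 90th percentiles were 6.46 and 6.68 points. Exons with a reading left out of the average are not in this comparison, and among them the 2 readings of PTCD1 in control cells with PMA were 35.0% and 2.5%. The readings share the skipping junction and the libraries, so they leave out the spread between cultures.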

How the data were processed

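Polyadenylated RNA from 8 libraries, 2 in each of 4 groups, was sequenced from stranded TruSeq libraries, per the labels' protocols. STAR 2.5.1b and the hg19 build are listed in the submitters' processing notes. The column names, per the file headers, match VOILA output of MAJIQ (version and filters not given in the sources used here). Deposited by the authors were, for each junction of an LSV, the expected share (a fraction) in control and depleted cells, the expected change and the posterior probability that it reaches 20 points. All are pooled over the libraries of a group, so depth is unknown. The labels do not say whether these were separate cultures. Unused columns of per-sample values numbered 0.

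A cassette LSV had 2 junctions, skipping of 1 exon inside the longer one, and neither an alternative splice site nor a retained intron. LSVs with the same skipping junction were averaged and the highest posterior taken, called at 0.95. In the LSV names "source" and "target" follow genome position and not transcription. GENCODE 29 exons were matched by gene, exon length and intron lengths, and no coordinates were converted between builds. Scripts used Python 3.11.15, pandas 2.3.3, NumPy 2.4.6 and matplotlib 3.10.9 and were tested on simulated tables.

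The members and gene lists were chosen with earlier results of these data known. Named were all called exons, the 10 uncalled ones with the largest expected change, the 8 with the largest difference between PMA and unstimulated cells in the same direction in both kinds of cells, exons of the listed neuronal and muscle genes at 10% to 90%, the shortest exons and called regulators. PTK2, SRC, AGRN, TAF1 and FAM168A were named after their values were seen.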

Additional observations from a re-analysis of the deposited data

Results flagged for a closer look

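A 27 nt exon of FAM168A, called in neither state, had expected changes of opposite sign in the 2 states. With PMA it was -7.87 points, with 13.5% inclusion in depleted and 24.9% in control cells (posterior 0.0492). Without PMA it was +6.11 points, with 21.4% in depleted and 11.4% in control cells (posterior 0.0246). Among microexons in both tables it alone passed 5 points in each state with opposite signs. The difference between the states was not tested.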

How the results depend on the processing

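Of 89 alternatives of the summary results, 66 stayed within the limits set for them. The limits were 1.5 times of a count, the spread between readings for a median, and the binomial interval of the share. Such values have no direction to reverse, and the medians could hardly leave their limits. The median expected change was 6.1e-05 points without PMA and 0.000258 points with PMA, against spreads of 0.949 and 2.18 points. Median inclusions lay near 2.5%, the lowest value. Microexons called without PMA were 4 of 323 (1.24%) in the main analysis and 2 of 210 (0.952%) with left-neighbour (source) LSVs alone. They were 2 of 67 (2.99%) with exons read from both neighbours at equal bounds, and 2 of 323 at a posterior of 0.99. With exons listed as 11 nt they were 8 of 1747 (0.458%), and 12 of 323 had an expected change of 10 points. With PMA the main analysis had 11 of 329 (3.34%), and right-neighbour (target) LSVs alone 5 of 185 (2.7%). Both neighbours gave 4 of 65 (6.15%), exons listed as 11 nt 18 of 1738 (1.04%), and 10 points 22 of 329. With exons listed as 11 nt the shares were under those of all cassette exons, 0.653% and 1.21%. The count of 20-point differences between PMA and unstimulated cells was 2 in depleted and 3 in control cells. In depleted cells it became 1 with target LSVs alone, 1 for lengths of 3 to 27 nt, 9 with exons listed as 11 nt, 0 with both neighbours, 16 at 10 points and 1 at 30 points. In control cells it became 1 with target LSVs, 9 with exons listed as 11 nt, 0 with both neighbours, 18 at 10 points and 0 at 30 points. The share of lengths that are multiples of 3, 60.6%, was 11.3% with exons listed as 11 nt, 78.3% with both neighbours and 71.2% with both ends joined, the last chosen after seeing the data. These settings change which exons are counted. Where a called exon was still measured under such a setting, 2 calls were lost: OCRL without PMA (-26.95 points) and MAST3 with PMA (-21.32 points), both with source LSVs alone. Calls of exons that a setting left out are not in this count. Without de novo LSVs, MAST2 and MAST3 were left out and 9 calls with PMA remained. An exon read from 1 neighbour alone could only stay the same or be left out with source or target LSVs alone. At a posterior of 0.99 OCRL and PPFIA1 without PMA (both 0.955) and MAST3 with PMA (0.959) were not called.

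No paired analysis was possible because both libraries of a group are pooled in 1 value, and for the same reason no library could be left out. Depth per exon is unknown, so an inclusion of 2.5%, the lowest value of the tables, does not show that an exon is absent.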
